A study of Mus musculus with 19 samples.

Results

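Interferon signals pass from the cell surface to the nucleus through a short chain of proteins, and 9 genes of this chain were followed in the RNA of mouse hepatocytes, the cells that do most of the liver's metabolic work. The 9 are the receptor genes Ifnar1, Ifnar2, Ifngr1 and Ifngr2, the kinase genes Jak1 and Tyk2, and the transcription factor genes Stat2, Irf9 and Irf7. Each was taken by its symbol from the deposited table, and all 9 were found among its 24537 genes. The cells came from 19 male wild-type C57BL/6J mice, with 1 poly(A) library per mouse, and were released by perfusing the liver in 2 steps. The labels name 10 mice young (5 months) and 9 old (24 months). By the labelled birth and cull dates the young mice were 140 or 163 days old and the old mice 719 or 742 days. There were 2 cull days, 23 days apart, with 5 young and 5 old mice on the first and 5 young and 4 old mice on the second. No mouse carried a transgene or received a treatment according to the labels, and no sorting step after the perfusion is named.

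Type 1 interferons (the alpha and beta forms) bind a receptor made of IFNAR1 and IFNAR2, on which the kinases TYK2 and JAK1 sit. The kinases activate STAT2 and a partner STAT, which join the DNA-binding factor IRF9 to form ISGF3, the complex that switches on antiviral genes through a DNA element called ISRE. Interferon gamma uses a separate receptor, IFNGR1 with IFNGR2, and acts through STAT dimers that bind another element, GAS. IRF7 is made in response to interferon and in turn drives interferon genes, which makes it a textbook amplifier of the response. Macrophages of the liver, its endothelial cells and hepatocytes all carry these receptors.

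The promoters of the 5 genes that passed the age test are shown because the inducible members are known for such elements. The windows run 5′ to 3′ on the gene's own strand, from 250 bases before to 50 bases after the RefSeq start on GRCm38.p6, the assembly also called mm10. Capitals mark matches to ISRE (read as GAAA, any 2 bases, GAAA), GAS (TTCNNNGAA), the GC box (GGGCGG) and the TATA box (TATAAA), searched on both strands. No match of one motif overlapped a match of another in these 5 windows.
Ifnar1: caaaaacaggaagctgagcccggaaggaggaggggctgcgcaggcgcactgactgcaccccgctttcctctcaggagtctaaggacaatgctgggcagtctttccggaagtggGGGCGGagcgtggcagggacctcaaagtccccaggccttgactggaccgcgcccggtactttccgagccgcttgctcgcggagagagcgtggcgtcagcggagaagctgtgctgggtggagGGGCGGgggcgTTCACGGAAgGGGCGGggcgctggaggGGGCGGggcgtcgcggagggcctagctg
Ifngr1: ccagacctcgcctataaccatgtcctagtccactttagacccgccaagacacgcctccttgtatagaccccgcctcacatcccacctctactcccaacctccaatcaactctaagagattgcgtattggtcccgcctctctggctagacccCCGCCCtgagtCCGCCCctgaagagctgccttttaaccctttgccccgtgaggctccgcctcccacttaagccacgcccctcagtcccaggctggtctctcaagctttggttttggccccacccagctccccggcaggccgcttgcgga
Stat2: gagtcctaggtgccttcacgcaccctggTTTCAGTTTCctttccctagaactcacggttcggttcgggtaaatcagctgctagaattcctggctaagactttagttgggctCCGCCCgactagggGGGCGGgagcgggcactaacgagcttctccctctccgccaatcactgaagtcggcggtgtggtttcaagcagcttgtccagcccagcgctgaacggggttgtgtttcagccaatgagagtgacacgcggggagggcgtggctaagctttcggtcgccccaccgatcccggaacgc
Irf9: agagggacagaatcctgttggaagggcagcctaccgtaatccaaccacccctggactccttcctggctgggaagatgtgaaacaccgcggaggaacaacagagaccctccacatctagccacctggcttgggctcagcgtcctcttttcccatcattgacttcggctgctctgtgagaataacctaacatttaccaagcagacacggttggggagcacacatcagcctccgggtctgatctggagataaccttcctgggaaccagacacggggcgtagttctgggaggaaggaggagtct
Irf7: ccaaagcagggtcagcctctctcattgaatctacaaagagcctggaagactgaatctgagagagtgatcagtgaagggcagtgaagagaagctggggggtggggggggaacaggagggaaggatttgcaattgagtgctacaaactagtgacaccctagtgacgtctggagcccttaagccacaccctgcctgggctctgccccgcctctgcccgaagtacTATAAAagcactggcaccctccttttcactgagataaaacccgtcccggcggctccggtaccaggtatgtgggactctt
Ifnar1 is at chr16:91484965-91485264 on the plus strand, Ifngr1 at chr10:19591699-19591998 on the plus strand, Stat2 at chr10:128270248-128270547 on the plus strand, Irf9 at chr14:55603735-55604034 on the plus strand and Irf7 at chr7:141266375-141266674 on the minus strand. Among all 9 genes, 1 window, that of Stat2, held an ISRE match, which began at base -222 from the start and lay on the opposite strand. Of 32851 mouse promoter windows of this length, 3.44% held at least 1. GAS matches lay in the windows of Ifnar1 (base -5) and Ifnar2 (base -214), against 8.30% of all windows. GC boxes were the commonest match, in 7 of the 9 genes at their first listed start, against 35.7% of all windows. The exceptions were Irf7 and Irf9, the latter with no match to any of the 4 motifs in the window shown. Irf7 was the 1 gene with a TATA box match, at base -29, a motif in 13.6% of all windows. These letter matches describe the windows and show nothing about binding.

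Counts over genes totalled 17381439 to 20287628 per library. The libraries carried hepatocyte genes at a high level: 8 markers such as Alb and Apoa1 summed to 95713 to 157316 CPM (counts put on a common total per library) in young mice and 119848 to 200709 CPM in old mice. By the age test described next, Alb and Apoa1 were higher in old mice, Cps1, Tat and Hnf4a were lower, and the other 3 did not pass. Markers of other liver cells were also present, and those of 3 cell types were mostly higher in old mice. In edgeR, with p adjusted over all genes, 13 of 14 macrophage, 7 of 10 endothelial and 9 of 10 stellate cell markers were higher in old mice and 0 lower, where 16.3% of all genes were higher. Of the cholangiocyte (bile duct) markers, 1 could be tested, Sox9, and it did not pass. Krt19, another of them, reached 3.30 CPM in young mouse 1239 and at most 0.291 CPM in old mice. Their summed levels, in young against old mice, ranged from 107 to 524 against 69.5 to 3372 CPM for macrophage markers, 143 to 256 against 147 to 499 CPM for endothelial markers and 43.0 to 120 against 130 to 467 CPM for stellate markers. No marker of these 3 lists was at 0 in all libraries. Old mouse 1187 stood apart with the highest sum of each of them. T and NK cell markers, none of which passed the filter on low counts, had a median sum of 0.277 CPM in young and 1.28 CPM in old mice, at most 1.79 CPM in every library but that of 1187 and 21.0 CPM there. The 1 tested B cell marker, Jchain, rose by 2.14 on the log2 scale (edgeR adjusted p = 0.00584) and the 1 tested neutrophil marker, Csf3r, by 2.10 (edgeR adjusted p = 0.00937). Young mice 1184, 1186 and 1188 held the 3 lowest hepatocyte sums. Alb weighs most on these sums, with 157362 of the 200709 CPM in old mouse 1185. Not every hepatocyte marker was low in these young mice: Tat had its highest level of all libraries in 1186, at 2227 CPM. In such bulk libraries, fewer cells of a type and less RNA per cell cannot be told apart.

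The age test took cull day into account (edgeR's quasi-likelihood test, p adjusted over 12269 genes, threshold 0.05). Of the 9 genes, 5 rose in old mice (Irf7, Ifngr1, Irf9, Stat2 and Ifnar1), 0 fell, and 4 did not pass (Ifnar2, Ifngr2, Jak1 and Tyk2). The background was 30.9% of all genes called, made up of 16.3% higher and 14.5% lower in old mice. Without a filter on low counts 3 passed (Irf7, Ifngr1 and Irf9), where 24.9% of all genes did. All 9 genes passed the filter on low counts, with at least 178.5 counts of each in every library. Their median log2 fold change (old against young) was 0.20, against -0.003 over all genes tested. In no case did all old mice lie above all young mice, a separation that 0.994% of genes showed.

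**Figure D1:**
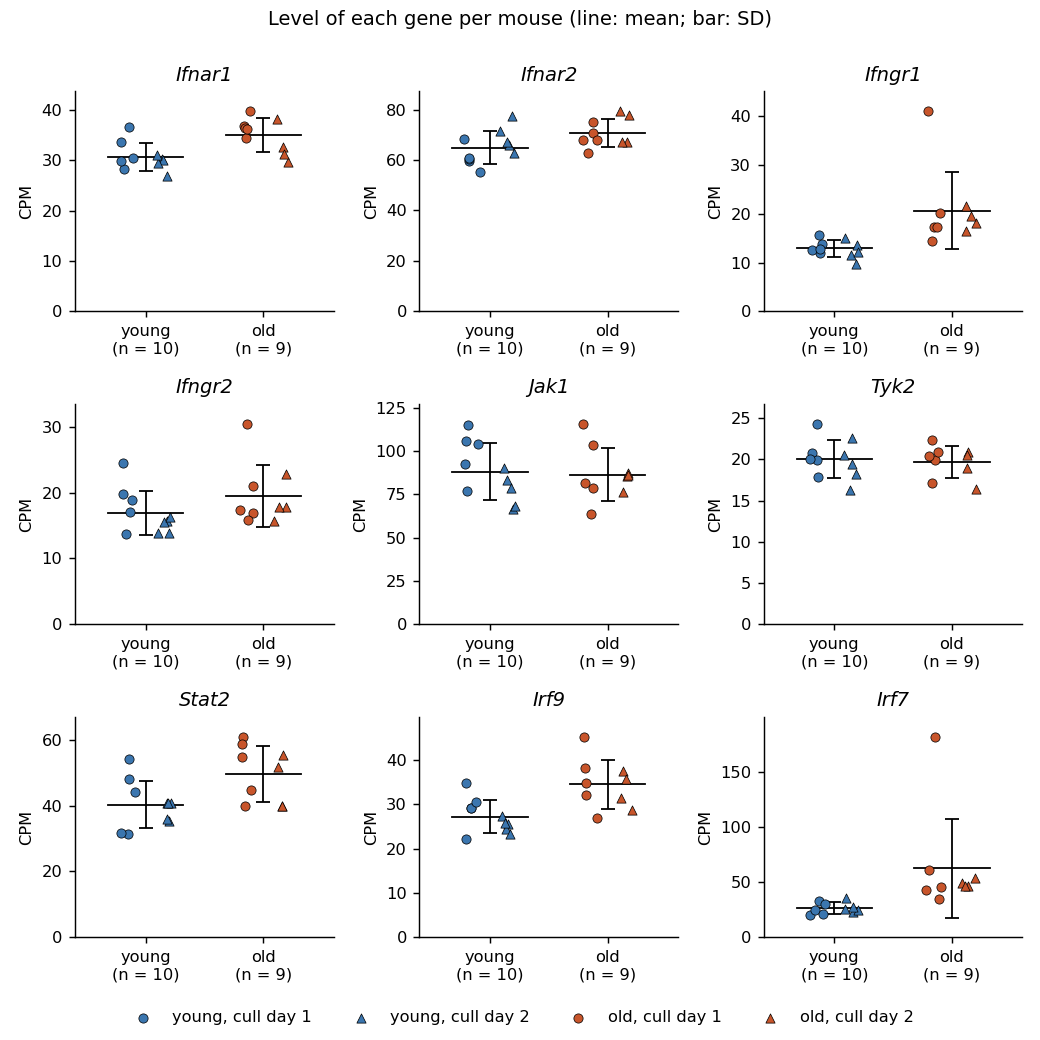
Level of each of the 9 genes (CPM, vertical axis from 0) in every mouse, by age; circles are the first cull day, triangles the second, lines means and bars SD. Irf7 and Ifngr1 are higher in 8 of 9 old mice than in any young mouse, with old mouse 1187 at 181 and 41.0 CPM, while Jak1 and Tyk2 show no separation by age.

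Of the interferon gamma receptor genes, the ligand-binding chain changed and the accessory chain did not pass. Ifngr1, on chromosome 10 (19591949 to 19610227, plus strand), encodes the chain that binds the cytokine. It was at 9.80 CPM in the lowest young mouse, 12.6 CPM in the median and 15.7 CPM in the highest, and at 14.5, 18.1 and 41.0 CPM in old mice. Of 9 old mice, 8 lay above every young mouse, and the exception was old mouse 1183. The rise was 0.67 on the log2 scale (SE 0.153, edgeR adjusted p = 0.00399), and 0.48 without old mouse 1187 (edgeR adjusted p = 0.00102). Ifngr2, on chromosome 16 (91547094 to 91564007, plus strand), encodes the signalling chain of the same receptor. Its young mice ran from 13.8 through a median of 16.0 to 24.5 CPM, and its old mice from 15.7 through 17.8 to 30.4 CPM. The groups overlapped, with 1 old mouse, 1187, above all young mice. The log2 fold change was 0.20 (95% interval -0.05 to 0.46, edgeR adjusted p = 0.212). Without old mouse 1187 alone it was 0.11 (edgeR adjusted p = 0.470). Without young mice 1184, 1186 and 1188 alone it was 0.34 (edgeR adjusted p = 0.0620). Without old mouse 1187 and these young mice Ifngr2 rose by 0.26 (edgeR adjusted p = 0.0404), a set of mice left out after seeing the data.

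The balance between the paired chains was compared directly as a ratio per mouse, after dividing each gene's level by its exon length. Ifngr1 stood at 0.765 of Ifngr2 on average in young mice (range 0.592 to 1.06) and at 1.02 in old mice (range 0.804 to 1.32). The log2 ratio was -0.41 ± 0.25 (SD, n = 10) in young and 0.01 ± 0.22 (SD, n = 9) in old mice. Stratified by cull day, it was higher in old mice by 0.42, and 9 of 9 old mice lay above the young median (exact two-sided permutation p = 0.0017, adjusted p = 0.0051 over 3 ratios). Neither day passed alone: among first-day mice the ratio differed by 0.52 (adjusted exact permutation p = 0.0714), and among second-day mice by 0.32 (adjusted exact permutation p = 0.119). The ratio of Ifnar1 to Ifnar2 differed by 0.05 (exact permutation adjusted p = 0.867) and that of Jak1 to Tyk2 by -0.004 (exact permutation adjusted p = 0.968).

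The type 1 receptor genes differed little between ages. Ifnar1, on chromosome 16 (91485215 to 91510522, plus strand), encodes the signalling chain that holds TYK2. It ran from 26.8 through a median of 30.1 to 36.7 CPM in young mice and from 29.6 through 36.2 to 39.7 CPM in old mice. Of the old mice, 3 of 9 lay above all young mice and 8 of 9 above the young median. The rise was 0.18 on the log2 scale (SE 0.0590, edgeR adjusted p = 0.0251). The call was lost in 8 of 16 other settings, among them no filter on low counts (edgeR adjusted p = 0.0744), either cull day alone (edgeR adjusted p = 0.168 and 0.263) and each marker score. Ifnar2, on chromosome 16 (91372783 to 91405587, plus strand), encodes the high-affinity binding chain. Its young mice ran from 55.2 through 64.2 to 77.3 CPM and its old mice from 62.7 through 68.2 to 79.3 CPM. The groups overlapped, with 2 of 9 old mice above every young mouse and 8 of 9 above the young median. The log2 fold change was 0.13 (95% interval 0.01 to 0.25), which did not pass over all genes (edgeR adjusted p = 0.0875). It passed without old mouse 1238 (edgeR adjusted p = 0.0495) or young mouse 1243 (edgeR adjusted p = 0.0449).

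Ifnar2, Ifnar1 and Ifngr2 lie in 1 row on chromosome 16, all on the plus strand, within 191 kb. The same stretch holds Il10rb, whose product is the shared second chain of the interferon lambda and interleukin-10 receptors. Il10rb begins 647 bases after the end of Ifnar2. It averaged 4.51 ± 1.23 CPM (SD, n = 10) in young and 9.76 ± 6.40 CPM (SD, n = 9) in old mice, a rise of 1.11 on the log2 scale (SE 0.266, edgeR adjusted p = 0.00527), and of 0.75 without old mouse 1187 (edgeR adjusted p = 0.00359). With a joint score of other-cell markers in the fit, described with those markers, its value was 0.25 (edgeR adjusted p = 0.287). The differences of the receptor genes in this row thus ran from 0.13 for Ifnar2 to 1.11 for Il10rb. Whether they differ from each other was not tested.

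The kinase genes did not pass. Jak1, on chromosome 4 (101151974 to 101265282, minus strand), serves both receptor types and many other cytokine receptors. Its young mice ran from 66.4 through 86.9 to 115 CPM and its old mice from 63.6 through 85.5 to 116 CPM. The highest values in young mice were those of 1184, 1186 and 1188, at 104 to 115 CPM. The log2 fold change was -0.03 (95% interval -0.25 to 0.19, edgeR adjusted p = 0.851). Its sign turned without those 3 mice (0.09) and with library totals as the only scaling (0.02). Tyk2, on chromosome 9 (21104068 to 21131275, minus strand), works on the type 1 receptor. It ran at 16.3 through 20.0 to 24.3 CPM in young and 16.4 through 20.5 to 22.3 CPM in old mice, with no old mouse above every young mouse. Its log2 fold change was -0.02 (95% interval -0.18 to 0.13, edgeR adjusted p = 0.819), and 0.02 with library totals alone.

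The transcription factor genes rose, Irf7 by the most. Irf7, on chromosome 7 (141263183 to 141266424, minus strand), ran from 20.0 through a median of 24.9 to 35.6 CPM in young mice and from 34.8 through 46.7 to 181 CPM in old mice. Of 9 old mice, 8 lay above every young mouse, and the exception was again 1183. The rise was 1.20 on the log2 scale (SE 0.252, edgeR adjusted p = 0.00227). Old mouse 1187 was far above the next, at 181 against 60.5 CPM. The old mean was 62.3 ± 45.2 CPM (SD, n = 9) with that mouse. Without it the mean was 47.4 ± 7.57 CPM (SD, n = 8), and the rise was 0.84 with a smaller error (SE 0.116, edgeR adjusted p = 7.93e-05).

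Irf9, on chromosome 14 (55603985 to 55610030, plus strand), supplies the DNA-binding part of ISGF3. Young mice ran from 22.2 through 26.6 to 34.8 CPM and old mice from 27.0 through 34.8 to 45.2 CPM. All 9 old mice were above the young median and 5 above every young mouse. The rise was 0.34 (SE 0.0906, edgeR adjusted p = 0.00997). Stat2, on chromosome 10 (128270576 to 128292849, plus strand), is the subunit particular to type 1 and lambda signalling. Young mice ran from 31.5 through 40.8 to 54.1 CPM and old mice from 39.9 through 51.9 to 60.8 CPM. The groups overlapped widely, with 4 of 9 old mice above every young mouse. The rise of 0.29 (SE 0.109) was at the threshold (edgeR adjusted p = 0.0499). Dropping any 1 mouse moved its edgeR adjusted p to between 0.0259 and 0.102, and 13 of these 19 fits lost the call.

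Genes close to the members on the genome were checked because the strand setting of the counting is not given in the sources used here. Only Jak1 overlaps another gene of the table, sharing 397 bases with Raver2 on the opposite strand, and Raver2 reached at most 0.632 CPM. Stat2 begins 424 bases after Apof, an apolipoprotein gene at 540 to 788 CPM in these libraries. Apof had a log2 fold change of 0.13 (edgeR adjusted p = 0.199). Irf9 begins 313 bases after Rnf31, whose log2 fold change was 0.22 (edgeR adjusted p = 0.0506). Phrf1 lies 431 bases from Irf7, with a log2 fold change of -0.08 (edgeR adjusted p = 0.603).

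Levels can be set beside each other once divided by exon length. In young mice Ifnar2 was highest, at 21.4 ± 2.12 CPM per kb (SD, n = 10), followed by Jak1 (16.7), Irf7 (14.3), Irf9 (10.7), Stat2 (9.23), Ifngr2 (8.22), Ifngr1 (6.13), Ifnar1 (4.38) and Tyk2 (4.13). The ranges of each neighbouring pair in this order overlapped over young mice. Within a mouse, Irf9 exceeded Stat2 in 10 of 10 young mice, and Ifngr1 exceeded Ifnar1 in 10 of 10. Ifnar1 stood at 0.208 of Ifnar2 on average (range 0.151 to 0.263) in young and at 0.217 in old mice. Jak1 was at 4.04 times Tyk2 in young and 4.04 times in old mice. In old mice Irf7 exceeded Jak1 in 9 of 9 libraries, against 3 of 10 young mice.

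**Figure D2:**
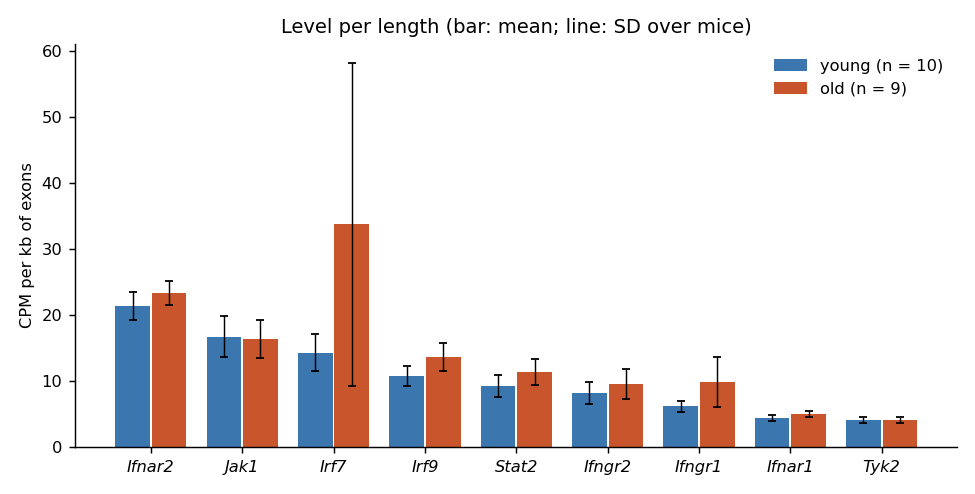
Mean level of each gene per kb of exons (CPM per kb, axis from 0) in young and old mice, with SD over mice, ordered by the young mean. Ifnar2 leads in young mice at 21.4 CPM per kb and Tyk2 is lowest at 4.13; the wide bar of Irf7 in old mice includes mouse 1187.

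The age effect was also read within each cull day. On the first day 0 of the 9 genes passed, where 3.67% of all genes did. On the second day 3 passed, all higher in old mice (Irf7, Ifngr1 and Irf9), where 19.3% of all genes did, 12.2% higher. Irf7 rose by 0.86 on the second day (edgeR adjusted p = 0.00126), and its log2 fold change was 1.50 on the first (edgeR adjusted p = 0.0679), the day of mouse 1187. On the first day the values were 0.72 for Ifngr1, 0.28 for Irf9 and 0.21 for Ifnar1, and on the second day 0.61, 0.40 and 0.16 in the same order. The difference between days was not past the threshold for any of the 9 (edgeR interaction, adjusted p from 0.872 to 0.996), and 0 of them had an unadjusted p under 0.05. Over all genes the interaction gave 0 calls in edgeR, with 6.51% of genes at an unadjusted p under 0.05, and 10 calls in DESeq2.

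Markers of other liver cells moved with some of these genes, and their part in the rises was not tested. Over the 19 libraries, as deviations from the mean of each age and cull day, Pearson's r with the macrophage score was 0.86 for Ifngr1, 0.84 for Irf7, 0.80 for Jak1, 0.73 for Irf9 and 0.71 for Ifngr2. It was 0.32 for Stat2, 0.26 for Ifnar2, 0.16 for Tyk2 and 0.09 for Ifnar1. With the endothelial and stellate scores r was 0.80 and 0.78 for Ifngr1, 0.83 and 0.75 for Irf7, and 0.75 and 0.83 for Jak1. In the same order it was 0.60 and 0.68 for Irf9, 0.57 and 0.71 for Ifngr2, and 0.24 and 0.46 for Stat2. It was 0.16 and -0.03 for Ifnar2, 0.30 and 0.29 for Tyk2, and 0.11 and 0.26 for Ifnar1. These are descriptions, in which both values of a point come from 1 library and old mouse 1187 weighs most. A joint score was made of the markers that passed the filter on low counts, which were 14 macrophage, 10 endothelial and 10 stellate cell markers and 1 B cell marker, Jchain, but no T or NK cell marker. When it was added to the age test, 0 of the 9 genes rose, where 13.1% of all genes were called and 6.65% called higher. The log2 fold change of Irf7 was then 0.42 (95% interval 0.06 to 0.79, edgeR adjusted p = 0.113), that of Ifngr1 0.20 (edgeR adjusted p = 0.223) and that of Irf9 0.12 (edgeR adjusted p = 0.377). Jak1 passed in the other direction, falling by 0.31 (edgeR adjusted p = 0.0309), where 6.43% of all genes were called lower. With the macrophage markers alone in the fit, 2 genes still rose, where 9.80% of all genes were called higher: Irf7 by 0.65 (edgeR adjusted p = 0.011) and Ifngr1 by 0.34 (edgeR adjusted p = 0.0198). The value of Ifnar1 was 0.17 with the joint score and 0.18 with the macrophage score, against 0.18 without either, and it did not pass (edgeR adjusted p = 0.155 and 0.076). That of Stat2 was 0.19 with the joint score (edgeR adjusted p = 0.349). With the endothelial score alone, 0 of the 9 passed, where 11.0% of all genes did. With the stellate score alone, 1 passed, Jak1, which was lower, as were 5.03% of all genes. In the stellate fit the values were -0.03 for Irf7, -0.07 for Ifngr1, -0.01 for Irf9, 0.02 for Stat2 and 0.11 for Ifnar1, and none of these 5 passed. Both of these fits were chosen after seeing the data. The stellate score of old mouse 1183 (mean log2 CPM 2.44) lay below those of young mice 1184 (2.76), 1235 (2.59) and 1186 (2.56), and the other 8 old mice lay above every young mouse.

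**Figure D3:**
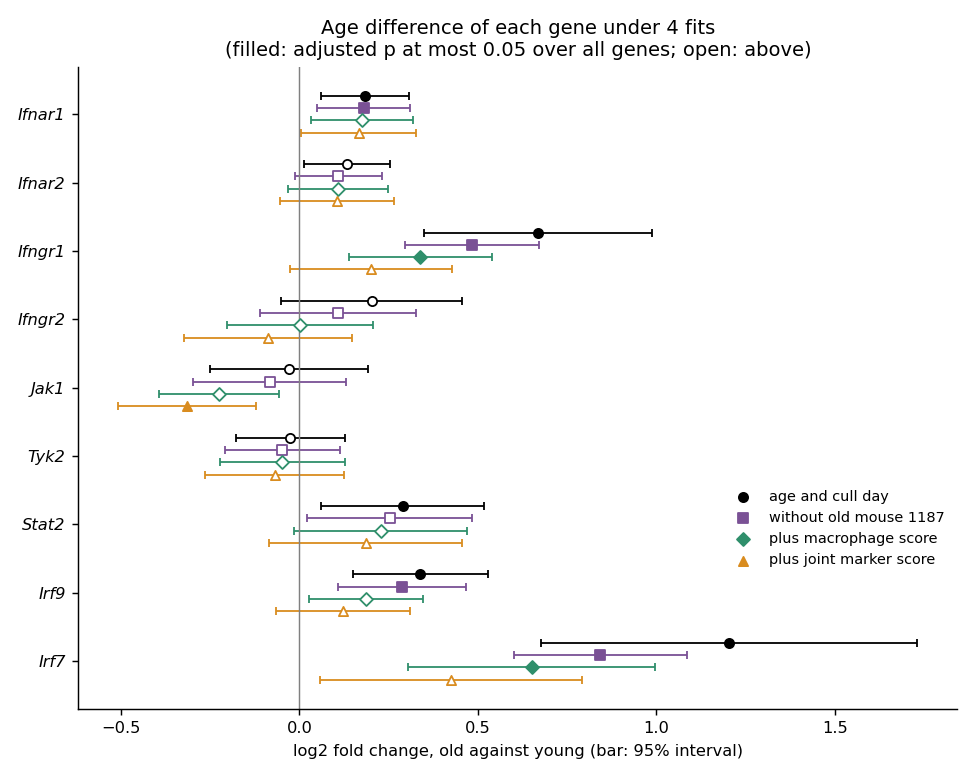
Log2 fold change of each gene, old against young, with 95% intervals, in the age test (black), without old mouse 1187, and with the macrophage or the joint marker score in the fit; filled symbols passed an adjusted p of 0.05. Irf7 goes from 1.20 to 0.42 with the joint score, while Ifnar1 stays between 0.17 and 0.18 in all 4.

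The macrophage sums of 3 mice singled out after seeing the data, 1183, 1184 and 1187, lay at an end of the range of their age. Old mouse 1183 had the lowest macrophage sum of all 19 libraries, 69.5 CPM, and an endothelial sum of 147 CPM, within the young range. Its stellate sum, 130 CPM, was above that of every young mouse. Its Irf7 level of 34.8 CPM was the lowest of the old mice, but above 9 of 10 young mice. Its Stat2 level was 54.7 CPM, above every young mouse. Its Ifngr1 level of 14.5 CPM and its Irf9 level of 27.0 CPM lay within the young range. Young mouse 1184 had the highest macrophage sum of the young mice, 524 CPM, above that of 6 of 9 old mice. Its Irf7 level was 32.8 CPM, exceeded among young mice only by 1235 at 35.6 CPM, and its Ifngr1 level was 13.9 CPM. Both were under those of every old mouse. Old mouse 1187, with the highest macrophage sum, had the highest Irf7 and Ifngr1 levels of all. Of 5 markers of plasmacytoid dendritic cells, blood cells known for high IRF7, Siglech, Ccr9 and Cd300c had at most 4.5 counts in any library. Spib had at most 33.5 counts and was highest in old mouse 1187, at 1.48 CPM, against at most 0.164 CPM in young mice. The fifth, Ly6d, reached 15.9 CPM in old mouse 1189, where Irf7 was at 42.8 CPM.

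**Figure D4:**
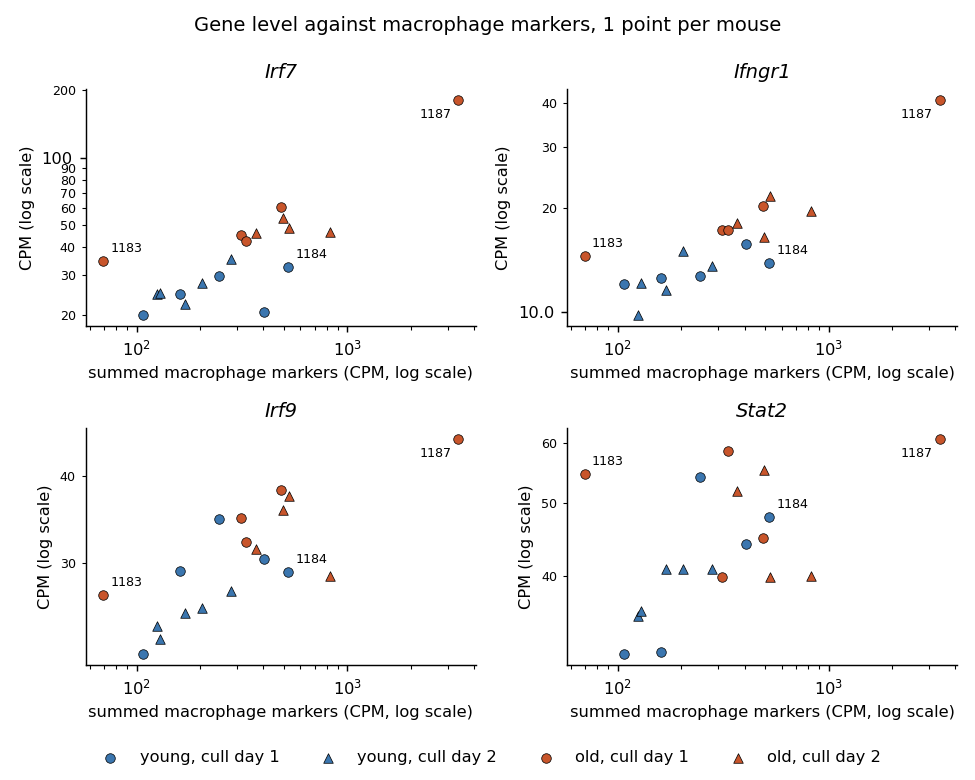
Level of Irf7, Ifngr1, Irf9 and Stat2 (CPM, log axis) against the summed CPM of 14 macrophage markers (log axis), 1 point per mouse. Old mouse 1187 is at the far right at 3372 CPM of markers, old mouse 1183 at the far left at 69.5 CPM, with Irf7 at 181 and 34.8 CPM.

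The rest of the pathway was read from lists of other genes. Interferon genes themselves were at or near 0: of 14 type 1 and lambda interferon genes, 11 had no read in any library and the other 3 at most 1. A count of 0 allows up to 0.148 to 0.173 CPM, depending on the library. Ifng, the gene of interferon gamma, had no read in the 10 young mice and 1 or 2 counts in 3 of 9 old mice. Ifnlr1, which encodes the specific chain of the lambda receptor, had at most 3 counts. None of the 7 other JAK and STAT genes tested passed, with a median log2 fold change of 0.14 and a range of -0.09 to 0.49. None of the 6 other IRF genes tested passed, with a median of 0.05 and a range of -0.16 to 1.04. In the same fit 30.9% of all genes were called, and whether these short lists differ from that share was not tested. Without old mouse 1187 and young mice 1184, 1186 and 1188, 2 of the 7 and 2 of the 6 rose, where 15.7% of all genes were called higher. The top of the IRF range, Irf8 at 1.04, was 0.45 without old mouse 1187 alone (edgeR adjusted p = 0.240).

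Among genes that restrain or feed the pathway, the calls went both ways and are to be read against the 30.9% of all genes called (16.3% higher and 14.5% lower). Of 15 tested genes listed as negative regulators, 2 rose and 2 fell, with a median log2 fold change of 0.04. The list also holds Ube2l6, Irf2bp1 and Irf2bp2, which are not direct inhibitors of JAK-STAT signalling, and none of them passed. Usp18, an ISG15 protease that also blocks the type 1 receptor at IFNAR2, rose by 0.99 (edgeR adjusted p = 0.00625), and Pias1, an inhibitor of STAT binding to DNA, by 0.28. Ptpn11, the gene of the phosphatase SHP2, fell by 0.31 and Pias2 by 0.17. Without old mouse 1187, 1 rose (Usp18) and 1 fell (Ptpn11), where 12.4% of all genes were called higher and 12.1% lower. With the joint marker score 0 of the 15 passed, where 13.1% of all genes did. Of 16 tested genes upstream of IRF7, 4 rose and 3 fell, with a median of 0.11. Tmem173, the gene of the DNA-sensing adaptor STING, rose by 1.83 from 0.803 ± 0.422 CPM (SD, n = 10), and by 0.90 without old mouse 1187, and Ddx58, the gene of the RNA sensor RIG-I, rose by 0.38. Mavs, the adaptor on which RIG-I acts, fell by 0.25 and Irak1, a kinase of Toll-like receptor signalling, by 0.19. Without old mouse 1187, 3 of the 16 rose and 3 fell, where 12.4% of all genes were called higher and 12.1% lower. Without that mouse and young mice 1184, 1186 and 1188, 6 rose and 3 fell. In that fit 1923 of 12273 genes were called higher and 1545 lower. With the joint score, 2 of the 16 were lower and 0 higher, where 6.43% of all genes were called lower and 6.65% higher.

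Of 25 genes that ISGF3 is known to switch on, 18 rose and 0 fell, with a median log2 fold change of 0.85, against -0.003 over all genes. In the same fit 16.3% of all genes were called higher. The list was chosen with earlier results of these data known, so its count is not an independent test. Ifi27l2a rose by 1.13, Ifi44 by 1.83, Xaf1 by 1.29 and Oasl2 by 2.21, all of them interferon-induced genes. Without old mouse 1187 the value of Oasl2 was 1.21 (edgeR adjusted p = 0.00467), and with the joint score it was 0.07 (edgeR adjusted p = 0.878). The corresponding counts were 13 without old mouse 1187, where 12.4% of all genes were called higher, 19 without that mouse and the 3 young mice, where 15.7% of all genes were called higher, and 1 (Ifi27l2a) with the joint marker score, where 6.65% were called higher. The largest rise among the 9 signalling genes was that of Irf7, itself such a target. Of the other members of the type 1 chain, Ifnar1, Irf9 and Stat2 rose by 0.18 to 0.34, while Ifnar2 (0.13), Jak1 (-0.03) and Tyk2 (-0.02) did not pass.

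**Figure D5:**
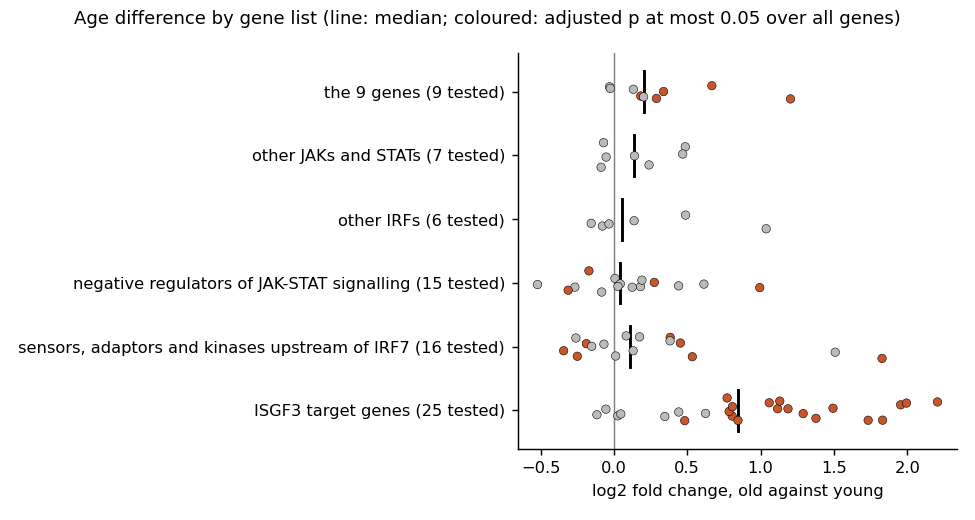
Log2 fold change, old against young, of each tested gene in the lists of the pathway, with medians as lines and genes past an adjusted p of 0.05 coloured. The 25 ISGF3 target genes have a median of 0.85, the other JAK and STAT genes 0.14 with none coloured. The lists were chosen with earlier results of these data known.

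The genes most like each member were found from how libraries deviated from the mean of their age and cull day, over 19 libraries and 12269 genes, as a description without a test. For Irf7 they were Ifit3b (Pearson's r = 0.969), Rtp4 (0.965) and Ly6a (0.962), all induced by interferon. For Irf9 they were Slc29a3 (0.890), Tapbp (0.873) and Lgals3bp (0.871), and for Ifngr1 Tmem86a (0.959), Slc37a2 (0.945) and Cln6 (0.930). Stat2 had lower best values, with Map3k6 (0.856), Msantd4 (0.833) and Hdac8 (0.825). Deviations of old mouse 1187 weigh on all of these.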

How the data were processed

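Poly(A) RNA of hepatocytes from 19 mice was sequenced as stranded paired-end libraries, per the labels' protocols. The authors deposited 1 table of estimated counts per gene (exons, mm10, HOMER's analyzeRepeats.pl, genes condensed, raw), per the file headers. STAR and HOMER are named in the submitters' processing notes. Versions, strand setting and handling of multiple matches are not given in the sources used here. The deposited counts are multiples of 0.5 and were rounded to whole counts, since the design assumed whole counts. The Length column, in bases, comes from the same deposited table.

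Age was tested with edgeR 4.0.16 (R 4.3.3): TMM scaling, filterByExpr (minimum count 10, 12269 of 24537 genes kept), quasi-likelihood test with cull day as covariate, Benjamini-Hochberg adjustment over all genes. CPM used the same scaling. Log2 CPM had a prior count of 2. Ratios were compared by exact permutation within cull days (31752 relabellings). Marker scores were mean log2 CPM of tested markers. Alternatives used DESeq2 1.42.0, limma 3.58.1, other scalings, filters, covariates and subsets. The scripts were tested on simulated data. All 9 members are named, and from each list up to 4 genes with the smallest p among those past the threshold. Members and lists were chosen with earlier results of these data known. The labels call each library a separate mouse, and no pair of 1 age was alike within counting noise (chi-square of at least 15.4 per degree of freedom). Promoter windows are from RefSeq (GRCm38.p6), and all 9 members matched.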

Additional observations from a re-analysis of the deposited data

Results flagged for a closer look

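Old mouse 1187 stood far from the other 8 old mice in 3 of the 9 genes, by Dixon's test of the gap to the nearest mouse. Its Irf7 level was 181 CPM, with the next old mouse at 60.5 CPM. Its Ifngr1 level was 41.0 CPM, with the next at 21.6 CPM, and its Ifngr2 level was 30.4 CPM, with the next at 22.9 CPM. The same library had the highest sums of macrophage (3372 CPM), endothelial (499 CPM), stellate (467 CPM), T and NK cell (21.0 CPM) and B cell (17.8 CPM) markers. Their part in its levels was not tested. In all, 18 groups of mice were tested (9 genes in each age), of which chance alone flags about 1 in 20.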

How the results depend on the processing

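No paired analysis was possible because the library numbers are not shared between ages. Of the 9 genes, the number past the threshold was 5, and 3 without a filter on low counts, 0 on the first and 3 on the second cull day alone, 1 with the joint marker score, 2 with the macrophage, 0 with the endothelial and 1 with the stellate score. Over all genes the calls were 3785, against 450 and 2388 on single cull days and 1605 with the joint, 2341 with the macrophage, 1347 with the endothelial and 1102 with the stellate score. Single cull days test fewer mice. Leaving out each mouse gave 3014 to 3949 calls over all genes and 4 to 5 of the 9. The interaction gave 0 to 1 calls that way and 10 in DESeq2. The endothelial and stellate scores, and leaving out 1187 with 1184, 1186 and 1188, were chosen after seeing the data.

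Signs turned for Jak1 with library totals (0.015), on the second cull day (0.12), without young 1184, 1186 and 1188 (0.094) and without these and 1187 (0.047), and for Tyk2 with library totals (0.020). They turned for Ifngr2 with the joint (-0.089), endothelial (-0.021) and stellate (-0.30) scores, and with the stellate score for Ifngr1 (-0.071), Irf9 (-0.011) and Irf7 (-0.030). The cause was not tested. Leaving out 1 mouse gave -0.083 to 0.026 for Jak1 and -0.051 to 0.020 for Tyk2. The log2 ratio of Ifngr1 to Ifngr2 differed by 0.52 and 0.32 on single days, where it did not pass, and by 0.37 to 0.47 without single mice. Jak1 to Tyk2 differed by -0.15 on the first day, by 0.14 on the second and by -0.065 to 0.055 without single mice, and Ifnar1 to Ifnar2 by -0.0051 to 0.097.

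Irf7, Ifngr1, Irf9 and Ifnar1 passed in all 19 fits that left out 1 mouse, and Ifnar2 passed in 2 of them. Over the 16 other settings (scaling, filter, tool, covariates, subsets), Stat2 kept its sign but lost the call in 11 (0.021 with the stellate score) and Ifnar1 lost it in 8. Members had at least 178.5 counts in every library. Depth limits what can be said of the interferon genes at 0.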

Other observations

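The mean level of Jak1 was 98.9 CPM in young mice of the first cull day and 77.4 CPM in those of the second, against 88.5 and 83.9 CPM in old mice. Of the first-day young mice, 1184, 1186 and 1188, those with the lowest hepatocyte sums, were at 104 to 115 CPM and the other 2 at 92.7 and 76.7 CPM. The age by cull day term for Jak1 was 0.28 on the log2 scale and did not pass (edgeR adjusted p = 0.874).

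In the same description of likeness over 19 libraries, the genes closest to Jak1 were Setd7 (Pearson's r = 0.929), Tmod3 (0.921) and Ptgfrn (0.919), and those closest to Tyk2 were Phtf2 (0.839), Fryl (0.835) and Depdc5 (0.833). Ifnar1 was closest to Sap130 (0.914), Arnt (0.867) and Golga2 (0.856).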
